A study of Mus musculus with 6 samples.

Results

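The zinc finger genes whose symbol is Zfp followed by a number were examined in an RNA-Seq table of fully-grown oocytes (FGOs) at the germinal vesicle (GV) stage. Zfp57 and Zfp36l2 were left out of the set. The table lists 362 such genes, and 129 of them reached 1 FPKM or more in 1 or more of the 6 libraries. These 129 genes are described here, among 6398 genes of 24255 in the table that reached the same level. FPKM is by definition a count of sequenced fragments divided by transcript length and by the mapped total of the library. The 129 genes were thus chosen by their name and by their highest FPKM in these same libraries, so that their presence in FGOs is no result.

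Such oocytes are full-sized but still immature, resting in prophase I of meiosis. LSM14B, a member of the LSM14 proteins, binds RNA. The WT group and the Lsm14b-KO group had 3 libraries each, every library made from 20 oocytes, collected 46 h after females had received 5 IU of PMSG to stimulate their follicles. Lsm14b-KO females were homozygous for a reporter-tagged, knockout-first insertion (tm1a) present in all cells and not in the oocyte alone, kept on a C57BL/6J background. The sources used here give no age. The labels do not say that the 3 libraries of a group came from different animals, so the p-values measure the spread between these libraries only. In a bulk library, fewer cells of a type and less RNA per cell cannot be told apart.

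A C2H2 zinc finger is a short protein loop that holds a zinc ion between a pair of cysteines and a pair of histidines, and arrays of such fingers contact DNA in a sequence-dependent way. Many vertebrate genes of this kind also encode a KRAB box, which binds TRIM28 (KAP1). TRIM28 in turn brings in SETDB1, a histone H3 lysine 9 methyltransferase, and the complex silences retroelements and guards imprinted loci. FGOs are almost silent in transcription and live on stored mRNA, so that a transcript's level there reflects what was made during growth and how it was kept. The Zfp symbol is a naming convention and not a family by descent. It also covers RNA-processing, ribosome and spindle proteins with few fingers.

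The targeted gene went with the labels. Lsm14b read 2.77, 3.98 and 1.72 FPKM in WT against 0, 0 and 0.10 FPKM in Lsm14b-KO (limma adjusted p 0.00380). The oocyte markers were present in all libraries, with summed levels of 7478 to 9374 FPKM in WT and 7361 to 9023 FPKM in Lsm14b-KO. Of these 12 markers 3 were called higher (Nobox, Ddx4 and Kit) and none lower, with a median log2 fold change of 0.75. Over all tested genes 6.38% were called higher and 15.2% lower, with a median of -0.08. All 7 red blood cell markers and 4 of 6 white blood cell markers were at 0 throughout. Of 12 cumulus and granulosa markers, 4 were at 0 throughout (Foxl2, Inhba, Cyp11a1 and Lhcgr), and the summed level was 9.68 to 13.5 FPKM in WT and 6.13 to 10.0 FPKM in Lsm14b-KO. Cyp19a1, the aromatase, was at 11.5, 8.26 and 10.5 FPKM in WT and at 5.47, 3.005 and 5.76 FPKM in Lsm14b-KO, and was the 1 marker called of the 3 tested (limma adjusted p 0.0426). Fshr, the FSH receptor, was at 1.68, 0.53 and 0.35 FPKM in WT and at 2.07, 1.91 and 1.82 FPKM in Lsm14b-KO, above WT in every library (limma adjusted p 0.0923). The part of these cells in the results was not tested. The sums of FPKM over all genes ran from 1141324 to 1244182 in WT and were 1029728, 564671 and 676656 in Lsm14b-KO (replicates in order). Counts per library were not used here. From the steps between very low FPKM values, depth relative to WT replicate 1 came to 1.14 and 1.03 for the other WT libraries and to 1.33, 1.95 and 2.18 for the Lsm14b-KO libraries. These ratios are depth only if FPKM was divided by each library's own mapped total, which was not established here. The steps themselves are larger in the WT libraries, so low values are coarser there.

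Of the 129 genes, 78 encode a match to a KRAB pattern in their longest annotated protein, 50 encode none, and 1 has no annotated coding sequence. The KRAB genes carry a median of 12 C2H2 fingers, up to 30, and the others a median of 6. Of the 129, 3 hold a match to a SCAN pattern, a dimerization domain. On chromosome 17 there are 24 of the 129, 23 of them with the KRAB pattern, followed by 23 on chromosome 7 and 14 on chromosome 13. Levels spread widely: the mean over the 6 libraries was under 1 FPKM for 30 genes, from 1 to 10 FPKM for 65, from 10 to 100 FPKM for 28, and above 100 FPKM for 6.

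The stretches below are shown because they are shared by several of the genes that fell the most. The letters TCACTCAAG (in capitals) were noticed after the promoters and the changes had been seen. The windows come from RefSeq (GRCm38.p6) and reach from 250 bases before to 50 after each gene's annotated start. They are printed from 5′ to 3′ on the gene's strand, 60 bases each, from Zfp938 (chr10:82241324-82241383, minus strand), Zfp958 (chr8:4613067-4613126, plus strand), Zfp433 (chr10:81704689-81704748, plus strand), Zfp932 (chr5:109996417-109996476, plus strand) and Zfp937 (chr2:150218002-150218061, plus strand).
Zfp938: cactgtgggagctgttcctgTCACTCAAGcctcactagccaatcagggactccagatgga
Zfp958: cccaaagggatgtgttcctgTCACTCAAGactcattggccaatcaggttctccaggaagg
Zfp433: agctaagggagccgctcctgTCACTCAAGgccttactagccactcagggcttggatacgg
Zfp932: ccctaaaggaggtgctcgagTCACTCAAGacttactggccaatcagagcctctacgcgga
Zfp937: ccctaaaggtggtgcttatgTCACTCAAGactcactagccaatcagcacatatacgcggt
The first 3 of these genes were lower in Lsm14b-KO oocytes. Zfp932 and Zfp937 did not pass the test. Zfp932 was below WT in every Lsm14b-KO library, but in replicate 1 only just, at 525 FPKM against 526 FPKM in WT replicate 3. Zfp937 had 1.21, 0.76 and 1.36 FPKM in WT and 0.63, 1.81 and 1.10 FPKM in Lsm14b-KO, with groups that overlap (log2 fold change 0.02, limma adjusted p 0.958). The values of the others follow.

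The question of the comparison was which single Zfp transcripts differ between WT and Lsm14b-KO FGOs. At an adjusted p under 0.05 in limma, 6 of the 129 genes were higher and 14 were lower in Lsm14b-KO oocytes, and 109 did not pass. Of all tested genes 6.38% were called higher and 15.2% lower, against 4.65% and 10.9% of the Zfp genes, so that neither share stood above the background. At an unadjusted p under 0.05 there were 46 of 129 (35.7%), against 39.4% of all tested genes. The median log2 fold change was -0.12 for the Zfp genes and -0.08 for all tested genes, on the log2(FPKM + 1) scale, which understates the change of low genes. All values of a group lay above those of the other for 21 Zfp genes (Lsm14b-KO above WT) and 35 (Lsm14b-KO below WT). The same was true of 19.1% and 26.0% of all tested genes. In 98 of the 129 genes both genotypes reached 1 FPKM, and 4 of these were called higher and 12 lower. All Lsm14b-KO values lay above WT in 7 of the 98 and below WT in 28, at a median log2 fold change of -0.21. All tested genes were not split in this way. Of the remaining genes, 20 reached 1 FPKM in Lsm14b-KO only and 11 in WT only. All Lsm14b-KO values lay above WT in 14 of these 20, and below WT in 7 of these 11. For these the entry into the set already favours a difference, and they are named as such below.

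**Figure D1:**
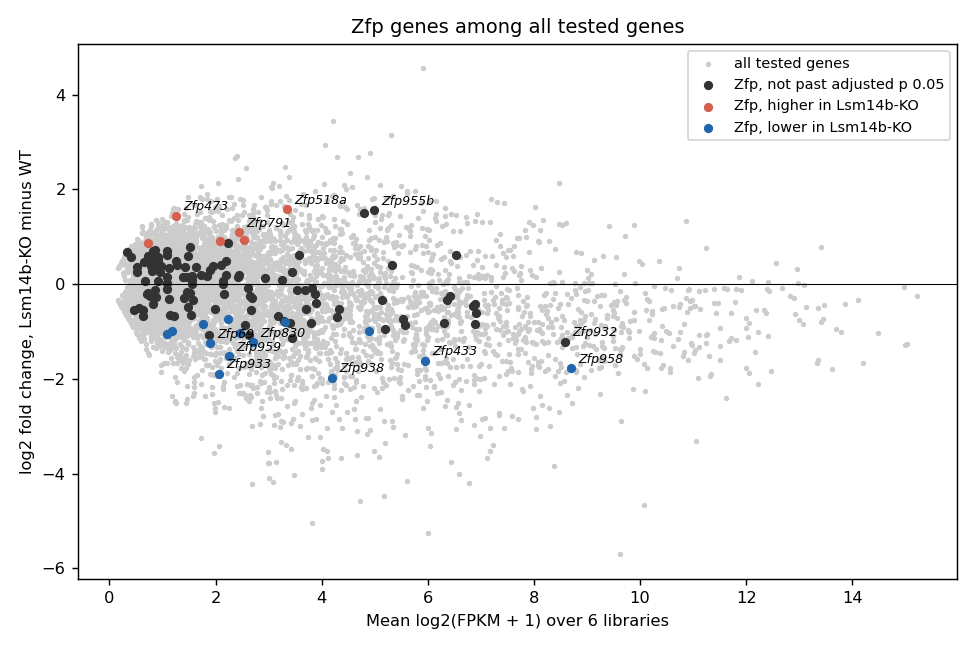
Each point is a gene, with its mean log2(FPKM + 1) over the 6 libraries on the horizontal axis and its log2 fold change (Lsm14b-KO minus WT) on the vertical axis; grey points are all 6398 tested genes, black points Zfp genes that did not pass an adjusted p of 0.05, red and blue points those called higher (6) and lower (14). The Zfp genes lie within the cloud of all genes, and Zfp958 and Zfp932 stand far to the right, at the highest levels of the set.

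The scaling of the libraries matters for these counts. When FPKM was rescaled to TPM, in which every library sums to the same total, the median log2 fold change of all genes moved by 0.48, and 9 Zfp genes were called higher and 5 lower, beside 833 and 486 of all 6398 tested genes (20.6% in either direction, 7.60% lower). Over all genes the share of calls that were higher moved from 29.5% to 63.2%. With quantile normalization the split was 6 higher and 10 lower, beside 1275 calls among all 6398 genes, 540 of them higher. With a correction for transcript length and GC content it was 7 and 13, beside 1392 calls among 6318 genes, 573 of them higher. Relative to the median of all genes, the median Zfp gene stood at -0.05 as deposited, 0.03 under TPM scaling, 0.04 under quantile normalization and -0.03 under the length and GC correction. The direction of the set as a whole thus flips with the scaling, whereas none of the 20 called genes changed sign under any of the 3 rescalings. The smallest called fall was -0.73, and TPM scaling moved called genes by at most 0.69. A call for a large change thus left that scaling no room to turn a sign. All 6 genes called higher passed the threshold in all 4 scalings. Under TPM scaling the genes still called lower were Zfp938, Zfp933, Zfp958, Zfp433 and Zfp959, and the genes added as higher were Zfp445, Zfp451 and Zfp729b.

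Lsm14b-KO replicate 1 lay between the WT libraries and the other Lsm14b-KO libraries for most of these genes. It held the Lsm14b-KO value nearest to WT in 12 of the 14 genes called lower and in 5 of the 6 called higher. Without it 24 Zfp genes were called higher and 31 lower, among them all 20 of the genes called with it. These 55 were 42.6% of the set, and over all tested genes the calls likewise went from 21.6% to 45.3% (18.0% higher and 27.3% lower). Without any other single library the counts were 1 to 3 higher and 3 to 8 lower, where the arm with fewer libraries was assumed to vary like the other. Over all tested genes these fits called 315 to 865 genes, 39 to 195 of them higher.

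Over the 15 alternatives 2 of the 20 called genes passed in all and 2 in 14, and the other 16 passed in 3 to 11.

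**Figure D2:**
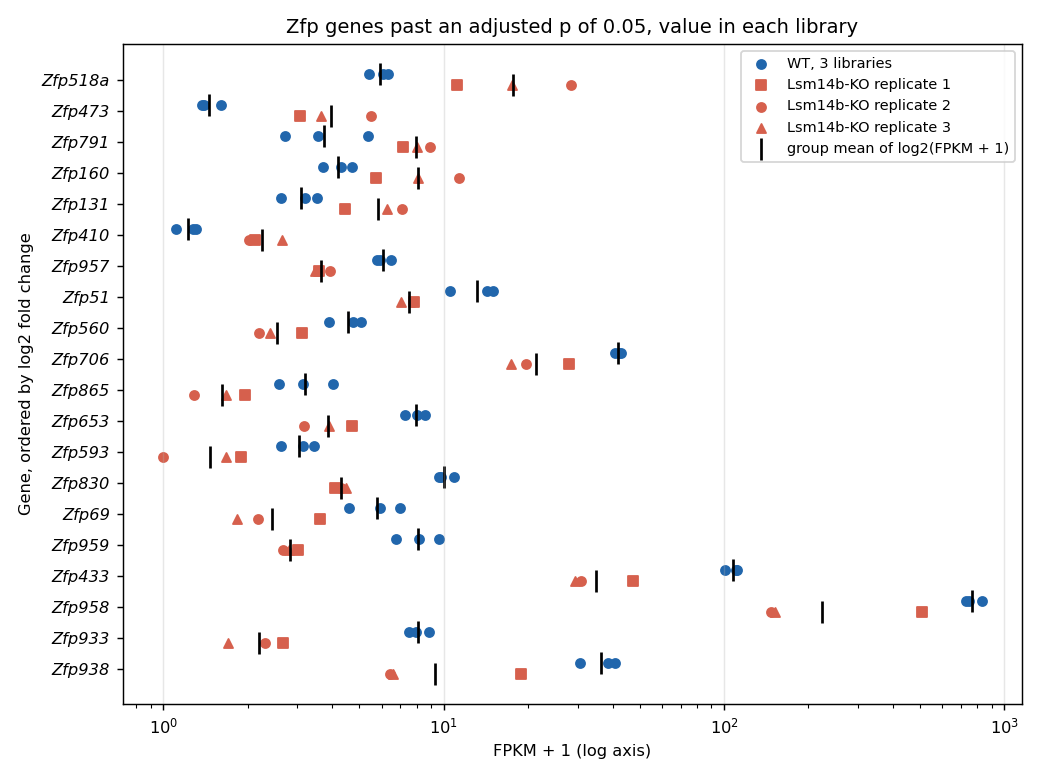
FPKM + 1 on a log axis in each library for the 20 Zfp genes past an adjusted p of 0.05, ordered by log2 fold change; blue circles are the 3 WT libraries, red squares, circles and triangles Lsm14b-KO replicates 1, 2 and 3, and bars the group means of log2(FPKM + 1). In all 20 genes the groups do not overlap, and the red squares of Lsm14b-KO replicate 1 lie nearest to WT in 17.

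The genes that fell with a KRAB box are described first. Zfp958 (chromosome 8, 4613167 to 4630231, plus strand) had the highest mean level of the set. WT libraries held 828, 746 and 730 FPKM, and Lsm14b-KO replicates 1, 2 and 3 held 506, 146 and 150 FPKM. Every Lsm14b-KO value lay below WT, with replicate 1 nearest to WT. The log2 fold change was -1.77 (SE 0.49, limma adjusted p 0.0396). Without Lsm14b-KO replicate 1 it was -2.36. The call held in 8 of 15 alternatives. It was lost without any other library, up to a limma adjusted p of 0.151, with no minimum on FPKM and under quantile normalization (-1.06, limma adjusted p 0.0604). Zfp958 encodes a match to the KRAB pattern followed by 13 fingers, and no other annotated gene overlaps it.

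Zfp938 (chromosome 10, 82224850 to 82241280, minus strand) had the largest negative log2 fold change of the genes called, as deposited. Its values were 39.9, 37.5 and 29.6 FPKM in WT and 17.8, 5.43 and 5.57 FPKM in Lsm14b-KO. Lsm14b-KO replicate 1 again stood apart from the other Lsm14b-KO libraries, but below every WT library. The log2 fold change was -1.97 (SE 0.44, limma adjusted p 0.0197), and the ratio of the WT to the Lsm14b-KO mean was 3.71. It passed in 10 of 15 alternatives.

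Zfp433 lies on the same chromosome (81704825 to 81726686, plus strand) and encodes 17 fingers after its KRAB box. It had 109, 99.7 and 110 FPKM in WT and 46.4, 30.0 and 28.3 FPKM in Lsm14b-KO. The groups were well apart, at a log2 fold change of -1.62 (SE 0.30, limma adjusted p 0.0108), past the threshold in 11 of 15 alternatives. Another gene model, Gm32687, is 99.9% identical to it over 2379 nt of transcript, so the value may hold fragments of both.

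Zfp933 and Zfp959 fell at a lower level and with a tighter spread. Zfp933 (chromosome 4, 147822986 to 147848366, minus strand, 12 fingers) had 7.84, 6.94 and 6.52 FPKM in WT and 1.67, 1.30 and 0.70 FPKM in Lsm14b-KO. The ratio of its group means, 5.81, was the largest among the genes called lower, with a log2 fold change of -1.89 (SE 0.23, limma adjusted p 0.00246). Under all 3 rescalings its log2 fold change was more negative than that of Zfp938, at -1.42 against -1.35 under TPM scaling. Zfp959 (chromosome 17, 55892093 to 55898928, plus strand, 9 fingers) had 8.60, 7.15 and 5.73 FPKM in WT and 2.01, 1.66 and 1.81 FPKM in Lsm14b-KO. Here Lsm14b-KO replicate 1 was close to replicates 2 and 3, and the log2 fold change was -1.52 (SE 0.21, limma adjusted p 0.00418). Both genes remained past the threshold in all 15 alternative analyses, the 6 that each leave out a library included.

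The other KRAB genes called lower were Zfp69, Zfp560 and Zfp51. Zfp69 (chromosome 4), known from mice as a gene that alters diabetes susceptibility, had 4.93, 5.99 and 3.61 FPKM in WT and 2.62, 1.17 and 0.83 FPKM in Lsm14b-KO. Its groups were separated by the narrow gap between WT replicate 3 and Lsm14b-KO replicate 1, at a log2 fold change of -1.24 (SE 0.30, limma adjusted p 0.0257). Zfp560 (chromosome 9, 15 fingers) went from 4.06, 3.76 and 2.90 FPKM to 2.12, 1.19 and 1.40 FPKM, a log2 fold change of -0.84 (limma adjusted p 0.0334). Zfp51 (chromosome 17, 20 fingers) went from 13.3, 9.56 and 13.9 FPKM to 6.82, 6.77 and 6.06 FPKM, a log2 fold change of -0.80 (limma adjusted p 0.0475). Without another library than Lsm14b-KO replicate 1 none of these 3 passed, and Zfp51 did not pass under any of the 3 rescalings.

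Genes without the KRAB pattern that fell include proteins of RNA and ribosome metabolism. Zfp830 (chromosome 11, 82764345 to 82765935, plus strand), a nuclear protein tied to pre-mRNA splicing and needed by the early embryo, had 8.79, 8.59 and 9.84 FPKM in WT and 3.09, 3.31 and 3.47 FPKM in Lsm14b-KO. The 3 Lsm14b-KO libraries were alike, replicate 1 included, and lay far below WT. The log2 fold change was -1.23 (SE 0.20, limma adjusted p 0.00637) and fell short of the threshold in 1 of 15 alternatives, TPM scaling, where it was -0.65 (limma adjusted p 0.121). Zfp593 (chromosome 4), a relative of a yeast factor for export of the large ribosomal subunit, had 1.63, 2.45 and 2.14 FPKM in WT and 0.89, 0 and 0.68 FPKM in Lsm14b-KO. It reached 1 FPKM in WT only and shares 701 nt of transcript with E130218I03Rik, listed at 0 in all libraries. Its log2 fold change was -1.06 (SE 0.28, limma adjusted p 0.0328). It passed in 6 of 15 alternatives, and not at pseudocounts of 0.1 and 0.01, where it was -2.34 and -3.49 (limma adjusted p 0.0785 and 0.153), nor under TPM scaling (limma adjusted p 0.0916).

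Zfp706 (chromosome 15, 36997027 to 37007773, minus strand), a protein of 76 residues that promotes exit from pluripotency in embryonic stem cells, was steady in WT at 41.3, 41.9 and 39.7 FPKM. In Lsm14b-KO it was at 27.0, 18.7 and 16.4 FPKM, below WT in all libraries, with a log2 fold change of -0.98 (SE 0.28, limma adjusted p 0.0426). Under TPM scaling this was -0.31 and under quantile normalization -0.57, both short of the threshold. Stretches of 202 to 265 nt of its transcript are 95.8% to 100% identical to other genes, so its value may hold fragments of these.

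Zfp653 (chromosome 9, 22055411 to 22071376, minus strand), a corepressor of a nuclear receptor, had 6.29, 7.05 and 7.54 FPKM in WT and 3.69, 2.17 and 2.88 FPKM in Lsm14b-KO, at a log2 fold change of -1.04 (SE 0.22, limma adjusted p 0.0182). Its transcript shares 471 nt with Gm49318. Zfp865 (chromosome 7) reached 1 FPKM in WT only, with 3.01, 2.16 and 1.59 FPKM against 0.96, 0.28 and 0.67 FPKM, a log2 fold change of -0.99 (limma adjusted p 0.0295). It shares 2045 nt of transcript with Zfp784, itself below 1 FPKM, and is uncertain for that reason. Zfp957 (chromosome 14), whose longest protein holds no match to the C2H2 pattern, was even within each group. It went from 5.48, 4.80 and 4.92 FPKM to 2.59, 2.92 and 2.47 FPKM, a log2 fold change of -0.73 (limma adjusted p 0.0316), and this was -0.18 under TPM scaling.

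The genes that rose were fewer than those that fell in the table as deposited. Zfp518a (chromosome 19, 40894705 to 40917947, plus strand), a long protein of 1478 residues with 5 matched fingers, had 5.05, 4.40 and 5.32 FPKM in WT and 10.1, 27.5 and 16.4 FPKM in Lsm14b-KO. All Lsm14b-KO libraries lay above WT, replicate 2 the furthest. The log2 fold change was 1.58 (SE 0.35, limma adjusted p 0.0199), the largest rise among the genes called, and a stretch of the locus is shared on the same strand with another annotated gene.

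Zfp473 (chromosome 7, 44731480 to 44751050, minus strand) encodes a component of the U7 small nuclear ribonucleoprotein pathway that trims histone pre-mRNA. It was below 1 FPKM in every WT library, at 0.61, 0.40 and 0.37 FPKM, and at 2.06, 4.52 and 2.66 FPKM in Lsm14b-KO. It entered the set through the Lsm14b-KO libraries, where its mean was 6.71 times that of WT. The log2 fold change was 1.44 (SE 0.25, limma adjusted p 0.00885). It passed the threshold in 14 of 15 alternatives, and the adjusted p was 0.0508 in the remaining one.

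Zfp791 (chromosome 8) and Zfp160 (chromosome 17) were the KRAB genes among those called higher. Zfp791, with 15 fingers, had 2.56, 1.71 and 4.37 FPKM in WT and 6.14, 7.89 and 7.01 FPKM in Lsm14b-KO, a log2 fold change of 1.10 (SE 0.28, limma adjusted p 0.0313). Zfp160, with 18 fingers, had 3.28, 3.69 and 2.70 FPKM in WT and 4.73, 10.4 and 7.10 FPKM in Lsm14b-KO, a log2 fold change of 0.94 (SE 0.28) at a limma adjusted p of 0.0497, just inside the threshold. Its adjusted p ran from 0.00676 to 0.157 over the alternatives.

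Zfp131 (chromosome 13), a transcription factor of the BTB type, had 1.64, 2.21 and 2.54 FPKM in WT and 3.45, 6.10 and 5.25 FPKM in Lsm14b-KO, a log2 fold change of 0.91 (SE 0.25, limma adjusted p 0.0361). Zfp410 (chromosome 12), known as an activator of Chd4, reached 1 FPKM in Lsm14b-KO only. It had 0.10, 0.28 and 0.31 FPKM in WT and 1.12, 1.02 and 1.65 FPKM in Lsm14b-KO, without overlap, at a log2 fold change of 0.88 (SE 0.20, limma adjusted p 0.0237). Chd4 itself stayed below 1 FPKM in all libraries and was not tested.

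**Figure D3:**
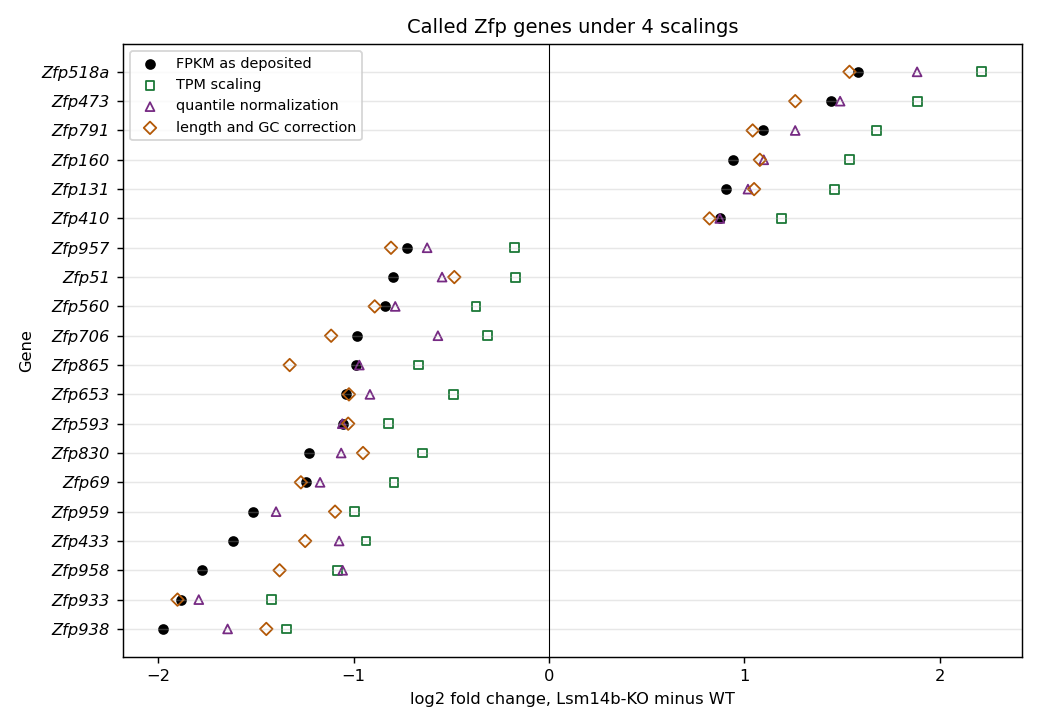
Log2 fold change (Lsm14b-KO minus WT, horizontal axis) of the 20 called Zfp genes under 4 scalings of the same FPKM table; filled circles are values as deposited, open squares TPM scaling, triangles quantile normalization and diamonds the correction for length and GC content. TPM scaling moves every gene to the right, by up to 0.69, and no gene crosses 0, the smallest fall as deposited being -0.73.

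Several abundant genes did not pass and had a wide spread among the Lsm14b-KO libraries. Zfp932 (chromosome 5, 109996521 to 110010411, plus strand), a KRAB protein that silences retroelements, was the second most abundant of the set. It had 653, 580 and 526 FPKM in WT and 525, 184 and 165 FPKM in Lsm14b-KO. Lsm14b-KO replicate 1 was at the level of the lowest WT library, and the log2 fold change of -1.21 (95% interval -2.28 to -0.14) had a limma adjusted p of 0.0940. Without that library it was -1.74 (limma adjusted p 0.000859). A close copy, Gm15446 (97.4% identical over 1765 nt), was at 0.72 to 2.40 FPKM. Zfp958 and Zfp932 together made up 38.9% to 44.6% of the summed FPKM of the 129 genes in WT, and 40.6%, 16.6% and 19.1% in the Lsm14b-KO libraries, in order of replicate. The 129 genes as a whole were 0.264% to 0.283% of the FPKM sum in WT and 0.247%, 0.353% and 0.244% in Lsm14b-KO.

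Next in level were Zfp277, Zfp960 and Zfp97. Zfp277, a partner of Polycomb repressive complex 1, had 155, 171 and 150 FPKM in WT and 144, 52.0 and 89.4 FPKM in Lsm14b-KO, at a log2 fold change of -0.85 (95% interval -1.76 to 0.06, limma adjusted p 0.148). Zfp960 and Zfp97, neighbours on chromosome 17 whose transcripts are 98.8% identical over 2655 nt, had nearly the same values as each other in every library. Zfp960 was at 140, 123 and 184 FPKM in WT and at 138, 106 and 60.2 FPKM in Lsm14b-KO. Neither differed beyond the spread between libraries (limma adjusted p 0.250 and 0.371), and their direction turned with the scaling. The ratio of Zfp97 to Zfp960 was 0.90 to 0.94 in WT and 1.01 to 1.04 in Lsm14b-KO. Fragments from such copies cannot be assigned with certainty, so these are best read as 1 signal. In the order of mean levels Zfp958 and Zfp932 stood clear of each other and of the rest in WT, where the ranges of Zfp960 and Zfp97 overlapped those of Zfp277 and Zfp655. In Lsm14b-KO Zfp958 and Zfp932 overlapped.

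Zfp955a and Zfp955b form a second pair on chromosome 17 (33239718 to 33255145, minus strand, and 33289544 to 33307241, plus strand), in opposite orientation and 98.4% identical over 2185 nt of transcript. Their RefSeq promoters are the same in all 300 bases (GRCm38.p6, chr17:33255096-33255395, minus strand, and chr17:33289294-33289593, plus strand). The sequence is shown since no difference in it separates the copies, and the capitals mark CCAATCA, the core of a CCAAT box.
Zfp955a and Zfp955b: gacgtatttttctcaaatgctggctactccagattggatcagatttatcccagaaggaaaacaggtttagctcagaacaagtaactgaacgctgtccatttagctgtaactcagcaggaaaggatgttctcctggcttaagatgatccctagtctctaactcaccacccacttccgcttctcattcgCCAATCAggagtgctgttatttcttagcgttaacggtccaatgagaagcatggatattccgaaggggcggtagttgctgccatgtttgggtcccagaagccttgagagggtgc
Zfp955a was at 14.6, 13.7 and 18.8 FPKM in WT and at 14.5, 106 and 59.6 FPKM in the Lsm14b-KO libraries, in order of replicate. Zfp955b was at 15.1, 15.0 and 22.98 FPKM in WT and at 14.7, 133 and 74.9 FPKM in Lsm14b-KO. Lsm14b-KO replicate 1 was thus at the WT level for both, and replicates 2 and 3 were several fold above every WT library. The log2 fold changes were 1.49 (95% interval 0.02 to 2.96, limma adjusted p 0.123) and 1.56 (95% interval -0.07 to 3.20, limma adjusted p 0.138), so that neither passed. Without Lsm14b-KO replicate 1 they were 2.29 and 2.46, both at a limma adjusted p of 0.0015.

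**Figure D4:**
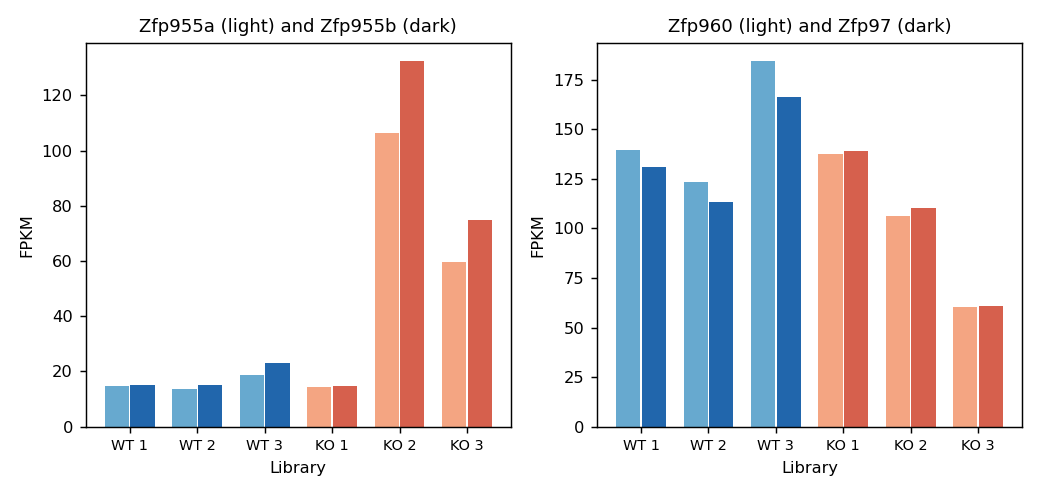
FPKM (vertical axis, from 0) in each of the 6 libraries for Zfp955a and Zfp955b (left) and Zfp960 and Zfp97 (right); blue bars are WT and red bars Lsm14b-KO libraries, the first gene of a pair light and the second dark. In Lsm14b-KO replicates 2 and 3 the left pair reaches 59.6 to 133 FPKM against 13.7 to 22.98 FPKM in WT, and the members of each pair move together.

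The role lists, set by textbook function, give the remaining members. Their counts stand beside 6.38% called higher and 15.2% called lower over all tested genes, and the lists are short. Of 13 genes for RNA, ribosome and translation functions 4 were tested, 1 of them higher (Zfp473) and 2 lower (Zfp830 and Zfp593), with a median log2 fold change of -0.30. The tristetraprolin-like mRNA decay factors on that list, Zfp36, Zfp36l1 and Zfp36l3, did not reach 1 FPKM. For spindle and ubiquitin functions Zfp207, which loads BUB3 onto kinetochores, was tested. It had 7.71, 6.63 and 12.6 FPKM in WT and 9.71, 16.1 and 16.7 FPKM in Lsm14b-KO, overlapping, with a log2 fold change of 0.61 (95% interval -0.13 to 1.36, limma adjusted p 0.189).

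Of 7 pluripotency and early embryo genes 4 were tested and Zfp706 alone passed. Zfp42 (REX1) stayed below 1 FPKM. None of the 4 tested genes of 6 for retroelement and imprint silencing passed at this threshold, and their median log2 fold change was -0.62. Zfp708, which targets a retroelement class, had 27.0, 19.0 and 26.5 FPKM in WT and 15.8, 11.7 and 15.8 FPKM in Lsm14b-KO, all below WT (log2 fold change -0.70, limma adjusted p 0.0975). Zfp445, an imprint guardian that works beside ZFP57, had 0.34, 0.60 and 0.12 FPKM in WT and 1.28, 1.00 and 0.84 FPKM in Lsm14b-KO, all above WT (log2 fold change 0.60, limma adjusted p 0.0798). It reached 1 FPKM in Lsm14b-KO only. Of 11 transcription factors 4 were tested, and Zfp131 alone passed.

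The partners of KRAB proteins were read from a list of 18 genes, 13 of which reached 1 FPKM. Over all genes 6.38% were called higher and 15.2% lower, or 21.6% in either direction. Of the 13 partners 3 were called, all higher: Trim28, Cbx3 and Uhrf1. Trim28, the KRAB corepressor, was low in WT at 0.34, 0.59 and 0.49 FPKM and at 1.33, 1.38 and 1.16 FPKM in Lsm14b-KO, without overlap (log2 fold change 0.64, limma adjusted p 0.0447). Cbx3, the heterochromatin protein HP1 gamma, had 0.16, 0.29 and 0 FPKM in WT and 1.35, 1.18 and 1.43 FPKM in Lsm14b-KO (log2 fold change 1.02, limma adjusted p 0.0129). Both reached 1 FPKM in Lsm14b-KO only, so their entry among the 13 already favours a rise. Of the 3 called, Uhrf1 alone was at 1 FPKM or more in WT.

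Uhrf1, which guides maintenance DNA methylation, had 5.52, 6.03 and 5.20 FPKM in WT and 8.55, 38.4 and 18.7 FPKM in Lsm14b-KO, with replicate 1 nearest to WT (log2 fold change 1.57, limma adjusted p 0.0480). Setdb1, the methyltransferase of the complex, had 1.37, 1.52 and 1.29 FPKM in WT and 1.996, 3.46 and 2.10 FPKM in Lsm14b-KO. Its groups did not overlap, yet it did not pass (log2 fold change 0.53, limma adjusted p 0.110). The count of 3 depended on the analysis: it was 1 without the intensity trend, at a pseudocount of 0.01 and under either change of the minimum, and 6 without Lsm14b-KO replicate 1. With the minimum set on the mean of all libraries, Trim28 and Cbx3 were not in the fit and could not be called. The count was 0 when Lsm14b-KO replicate 3 was left out and 1 on leaving out each other library.

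By protein pattern, 2 of the 78 KRAB genes were called higher and 8 lower, and 4 of the 50 genes without the pattern were called higher and 6 lower, where all tested genes gave 6.38% and 15.2%. Under TPM scaling the counts were 4 higher and 5 lower with the pattern and 5 higher and 0 lower without it. Of all 6398 tested genes, 833 were called higher and 486 lower under that scaling. The median log2 fold change was -0.20 in the KRAB genes and 0.08 in the others. Relative to the median of all genes this was -0.12 and 0.16 as deposited, -0.06 and 0.21 under TPM scaling, -0.06 and 0.13 under quantile normalization, and -0.10 and 0.05 under the length and GC correction. The difference between these groups was not tested. Both groups were taken without regard to genes that reached 1 FPKM in 1 genotype only, whose entry favours a difference. Of the 129 genes, the 20 that did so in Lsm14b-KO were all above 0, with a median of 0.55. Of the 11 that did so in WT, 10 were below 0, with a median of -0.50. By mean level the KRAB genes were the higher ones, with a median of 4.31 FPKM against 1.78 FPKM. The genes called lower had transcripts of 1591 to 7503 nt with a median of 2374 nt, and those called higher of 2597 to 6840 nt with a median of 3454 nt, against 2932 nt for the 129 genes.

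The promoter letters shown above were searched on both strands in the 112 of the 129 genes with a RefSeq promoter. TCACTCAAG occurred in 11 of them (9.82%), always as written on the gene's strand, and in 0.847% of the promoters of all 27025 genes. All 11 encode the KRAB pattern, and 7 have a transcript at least 95% identical to another gene over 200 nt or more. They were Zfp938, Zfp958, Zfp433, Zfp932, Zfp931, Zfp442, Zfp97, Zfp345, Zfp937, Zfp68 and Zfp869. CCAATCA, searched likewise and not overlapping these letters, occurred in 40 of the 112 (35.7%) and in 9.0% of all promoters, and 10 genes held both.

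Of the 11 genes 3 were called lower and none higher, where all tested genes gave 15.2% lower and 6.38% higher. Their log2 fold changes ran from -1.97 to 0.57 with a median of -0.83, and 8 of them were below 0. In the other 101 genes with a promoter the median was 0.01, with 7 called lower and 5 higher. Zfp442 was the nearest to the threshold among those that did not pass, with 19.0, 16.9 and 16.9 FPKM in WT and 7.502, 12.1 and 9.32 FPKM in Lsm14b-KO (limma adjusted p 0.0522). The stretch printed above for Zfp937 is the same in Zfp442, base for base. The log2 fold changes were -0.83 for Zfp442 and 0.02 for Zfp937. Zfp68 and Zfp869 went the other way, at log2 fold changes of 0.41 and 0.57, neither past the threshold. The letters were picked from promoters of these same genes and after the falls had been seen. Neither their excess over all promoters nor the share of genes that fell therefore has a test.

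**Figure D5:**
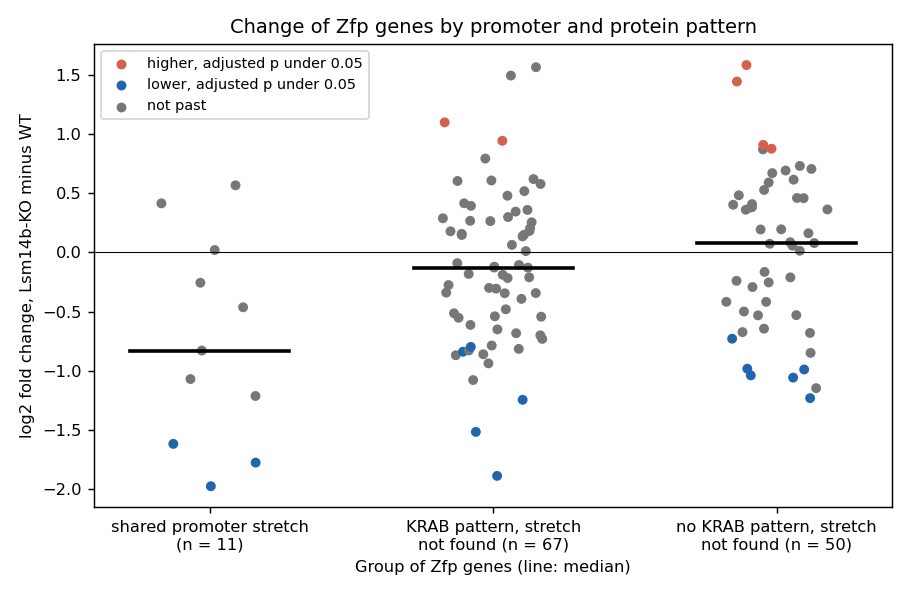
Log2 fold change (Lsm14b-KO minus WT, vertical axis) of single Zfp genes in 3 groups: the 11 with the shared promoter letters, the other 67 with the KRAB pattern, and the 50 without it, where the last 2 groups include genes that have no promoter in the table used. Red and blue points are genes called higher and lower, grey points those that did not pass, and lines the medians of -0.83, -0.13 and 0.08. The letters were picked after the falls had been seen, so the first group has no test. Genes that reached 1 FPKM in 1 genotype only were not taken out.

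At the edge of the set, Zfp763 entered with a highest value of 1.02 FPKM, followed by Zfp407 at 1.05 FPKM. Just outside were Zfp821 and Zfp575, whose highest values were 0.997 and 0.995 FPKM. Of the 233 Zfp genes left out, 184 had some value above 0 and 49 were listed at 0 in all libraries.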

How the data were processed

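FPKM of 6 RNA-Seq libraries, 3 WT and 3 Lsm14b-KO, were analysed, grouped by title and genotype label. RNA was amplified by Smart-seq2. The library kit is named differently in the sources and strand is not stated, so reads of overlapping antisense genes cannot be told apart. According to the submitters' processing notes, reads were aligned to mm10 with TopHat2 (2.0.13) and the FPKM values were computed by the authors with Cufflinks (2.2.1). The gene annotation is not given in the sources used here. Cuffnorm and Cuffdiff are also named among the tools, and how they scaled the libraries against each other was not established here. The FPKM sums ran from 564671 to 1244182, so a value is not a share of a fixed total. Each value is still relative to its library, so a change in abundant transcripts can move others. The deposited table also holds the authors' fold changes, p-values and q-values, which were not used. It gives no counts, and no count model was fitted.

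Genes that reached 1 FPKM in any library were tested on log2(FPKM + 1) with limma 3.58.1 in R 4.3.3 (lmFit, eBayes with a trend, genotype as the only term, two-sided, Benjamini-Hochberg over 6398 genes). A gene was called at an adjusted p under 0.05. Alternatives changed the pseudocount, the minimum, the scaling, the trend, the replicate block and each library in turn. The test was checked on simulated data. Coordinates, overlaps, transcript lengths and translated proteins came from GENCODE vM21 (GRCm38), promoters from RefSeq (GRCm38.p6), and close copies from blastn 2.17.0 (95% identity over at least 200 nt). Finger, KRAB and SCAN matches are matches to letter patterns and miss diverged forms. The KRAB pattern was widened after Zfp160 was seen to be missed, which added 2 genes. Relative depth is the commonest ratio of FPKM between 2 libraries over genes under 0.5 FPKM in both.

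The Zfp genes, role lists and marker lists were chosen with earlier results of these data known. Genes were named by a rule: those called with groups apart (up to 12 rises and 12 falls), the 5 highest means, the called or 3 highest of each role list, the 3 largest differences among genes at 1 FPKM in 1 group only, called partners with Trim28 and Setdb1, Lsm14b, and genes at the edge of the minimum. Zfp51, Zfp957, Zfp955a, Zfp955b, Zfp655, Zfp442, Zfp451, Zfp729b and the other genes with the promoter letters were named after their values were seen.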

Additional observations from a re-analysis of the deposited data

How the results depend on the processing

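With 6 Zfp genes called higher and 14 lower as reported, leaving out 1 library gave 1 to 24 higher and 3 to 31 lower. The lowest counts came without any 1 of the WT libraries or without Lsm14b-KO replicate 3 and the highest without Lsm14b-KO replicate 1, where fewer libraries remain in 1 arm. Over all tested genes these fits called 315 to 2898 genes. The count of lower genes was 5 without the minimum and 5 under TPM scaling, and the other counts of Zfp genes stayed within 1.5 times. Against 3 partner genes as reported, 1 was called at a pseudocount of 0.01, without the minimum, at a mean of at least 1 FPKM and without the trend, and 0 to 6 when a library was left out. At a mean of at least 1 FPKM the partners Trim28 and Cbx3 were not in the fit, so they could not be called there. The causes of the other shifts were not tested. Zfp97 turned from -0.46 to 0.22 under TPM scaling and 0.12 under quantile normalization, and Zfp960 from -0.61 to 0.075 under TPM scaling; neither was past the threshold in any analysis. Same-numbered libraries had deviations from their group means correlated at 0.19, -0.13 and 0.018. With 3 libraries per group and no other pairs set beside them, these values cannot decide whether the numbers pair the libraries. With the replicate block 5 Zfp genes were higher, 12 were lower and 2 partners passed. Zfp933, Zfp959 and Lsm14b passed in all 15 alternatives. Low FPKM values rest on few fragments and limit what can be said of genes near 1 FPKM.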
